A study of Mus musculus with 18 samples.

Results

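The Toll-like receptors (TLRs) measured in B cells, the TLR homolog CD180, and 2 proteins that these receptors need were examined in bulk RNA-Seq of B cells from mice with an egg allergy model. The genes were the rows of the count table named *Tlr1*, *Tlr2*, *Tlr3*, *Tlr4*, *Tlr6*, *Tlr7*, *Tlr9*, *Cd180*, *Ly86*, and *Unc93b1*, which are 10 of the 55491 genes in the table. All 10 passed the count filter in each of the 9 comparisons. Every mouse was a female Balb/cJ mouse of 10 to 12 weeks that carried no engineered allele in the labels and had been sensitized i.p. on days 0 and 14 with 20 μg OVA together with 1 mg alum, so the control mice were allergic mice too. On days 28 and 42 the mice received, i.v., PBS (100 μL), soluble OVA (100 μg), or OVA NPs (2.5 mg of polymer particles that encapsulate the allergen ovalbumin), and cells were taken on day 44, before any oral challenge. B cells were isolated by negative selection from the spleen and from Peyer's patches, which are clusters of lymphoid follicles in the wall of the small intestine, and each of the 6 combinations of tissue and treatment had 3 libraries. No group given particles without OVA was analysed here, and the labels call the libraries biological replicates without saying whether each came from 1 mouse. They also do not say whether spleen and Peyer's patch libraries came from the same mice.

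TLRs are receptors of innate immunity that recognize conserved microbial molecules and signal through the adaptors MyD88 and TRIF to NF-κB and interferon regulatory factors. TLR1, TLR2, TLR4, and TLR6 act at the cell surface, whereas TLR3, TLR7, and TLR9 sense nucleic acids in endosomes after UNC93B1 has carried them there. CD180, also called RP105, is a surface protein of B cells that resembles TLR4 but lacks its signaling domain and pairs with MD-1, the product of *Ly86*. Mouse B cells respond to lipopolysaccharide, CpG DNA, and anti-CD180 by proliferating, and marginal zone B cells are known for strong TLR responses.

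The sequences of *Tlr1* and *Tlr6* bear on how their counts were separated. The genes lie close to each other on the minus strand of chromosome 5, *Tlr1* at chr5:64924679-64933563 and *Tlr6* at chr5:64952031-64960097 (GRCm38). Their coding sequences were identical at 74.8% of aligned bases. The longest stretch shared without a mismatch was 229 bases, at chr5:64925537-64925765 in *Tlr1* (coding bases 1468 to 1696 of 2385) and chr5:64953828-64954056 in *Tlr6* (coding bases 1507 to 1735 of 2418). The stretch lies in coding exons of both genes and is given once in the direction of transcription, in lower case throughout.

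Shared by *Tlr1* and *Tlr6*: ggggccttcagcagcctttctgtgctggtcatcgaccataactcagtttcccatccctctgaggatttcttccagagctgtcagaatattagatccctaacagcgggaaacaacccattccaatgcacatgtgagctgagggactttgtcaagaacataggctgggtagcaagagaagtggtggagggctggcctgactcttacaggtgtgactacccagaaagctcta

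A read that falls wholly within this stretch fits both genes. The paper reports paired-end sequencing, so a mate outside shared sequence can tell the genes apart. RSEM divides read pairs that fit both genes by estimate. Of all 31-base words of the *Tlr1* coding sequence, 25.6% also occurred in *Tlr6*, so the *Tlr1* and *Tlr6* counts are not fully independent. The reads were longer than 31 bases and paired, so this is not the share of reads that were divided. The longest stretch shared by the coding sequences of any other pair of the 10 genes was 16 bases, between *Tlr3* and *Tlr4*. Untranslated parts of the exons were not compared.

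RefSeq promoter windows (GRCm38.p6) were matched for 7 of the 10 genes, and the 250 bases before the start site are shown for *Tlr9* and *Cd180*, a receptor of CpG DNA and a surface receptor whose levels were lower in the spleen after both forms of OVA. Capitals mark matches, on either strand, to an octamer (ATTTGCAT, bound by the B cell factors Oct-1 and Oct-2), a PU.1 pattern (GAGGAAG), an interferon response pattern (GAAANNGAA), or a short NF-κB pattern (GGGNNNTTC).

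*Tlr9* (chr9:106222348-106222597, plus strand): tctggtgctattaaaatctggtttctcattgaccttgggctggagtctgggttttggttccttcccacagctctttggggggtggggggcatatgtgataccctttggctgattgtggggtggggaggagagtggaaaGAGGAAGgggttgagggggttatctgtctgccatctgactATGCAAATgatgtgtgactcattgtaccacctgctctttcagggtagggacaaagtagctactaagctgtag

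*Cd180* (chr13:102693308-102693557, plus strand): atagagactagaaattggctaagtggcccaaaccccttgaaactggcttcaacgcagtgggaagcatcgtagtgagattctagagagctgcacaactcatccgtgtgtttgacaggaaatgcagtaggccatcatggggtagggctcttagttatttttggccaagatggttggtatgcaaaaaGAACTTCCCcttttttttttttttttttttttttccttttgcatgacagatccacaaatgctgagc

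The *Tlr9* window held 1 octamer, 72 to 65 bases before the start site, and 1 PU.1 pattern, 112 to 106 bases before it. The *Cd180* window held 1 NF-κB pattern, 66 to 58 bases before the start site. Among 32851 RefSeq promoter windows the octamer occurred in 1.60%, the PU.1 pattern in 10.6%, the interferon response pattern in 7.13%, and the NF-κB pattern in 11.8%. A match describes the letters and does not show that a factor binds there.

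Library totals ran from 14177253 to 30052297 counts (median 22341270), and 3 counts corresponded to between 0.105 and 0.22 CPM, the usual unit of counts scaled to library size. Levels are given in this unit with TMM, a normalization that evens out composition between libraries. *Cd79a*, *Cd79b*, *Ms4a1*, *Pax5*, and *Cd22*, which define B cells, were at 700.2 CPM or more in every library. Mitochondrial genes took 2.82% to 3.41% of the counts in the spleen, 5.41% to 7.67% in Peyer's patches after PBS, 4.97% to 6.02% after soluble OVA, and 9.08% to 9.80% after OVA NPs. Replicate 2 of the Peyer's patch PBS group was the shallowest library and carries library number 19, whereas replicates 1 and 3 of its group carry 10 and 12. A difference in bulk RNA cannot tell fewer cells of a type from less RNA per cell.

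*Unc93b1* was the most abundant of the 10 transcripts. Its mean level over the 18 libraries was 208 CPM per kb of exon. *Cd180* (47.2 CPM per kb), *Tlr1* (40.7), *Ly86* (32.2), and *Tlr9* (27.4) followed. *Tlr6* (8.71) and *Tlr7* (7.12) were lower, and *Tlr2* (2.73), *Tlr4* (1.87), and *Tlr3* (1.15) were the lowest. These values are levels per length and are used only to compare genes with each other. The smallest count behind any value was 41, for *Tlr2* in a Peyer's patch library.

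**Figure D1:**
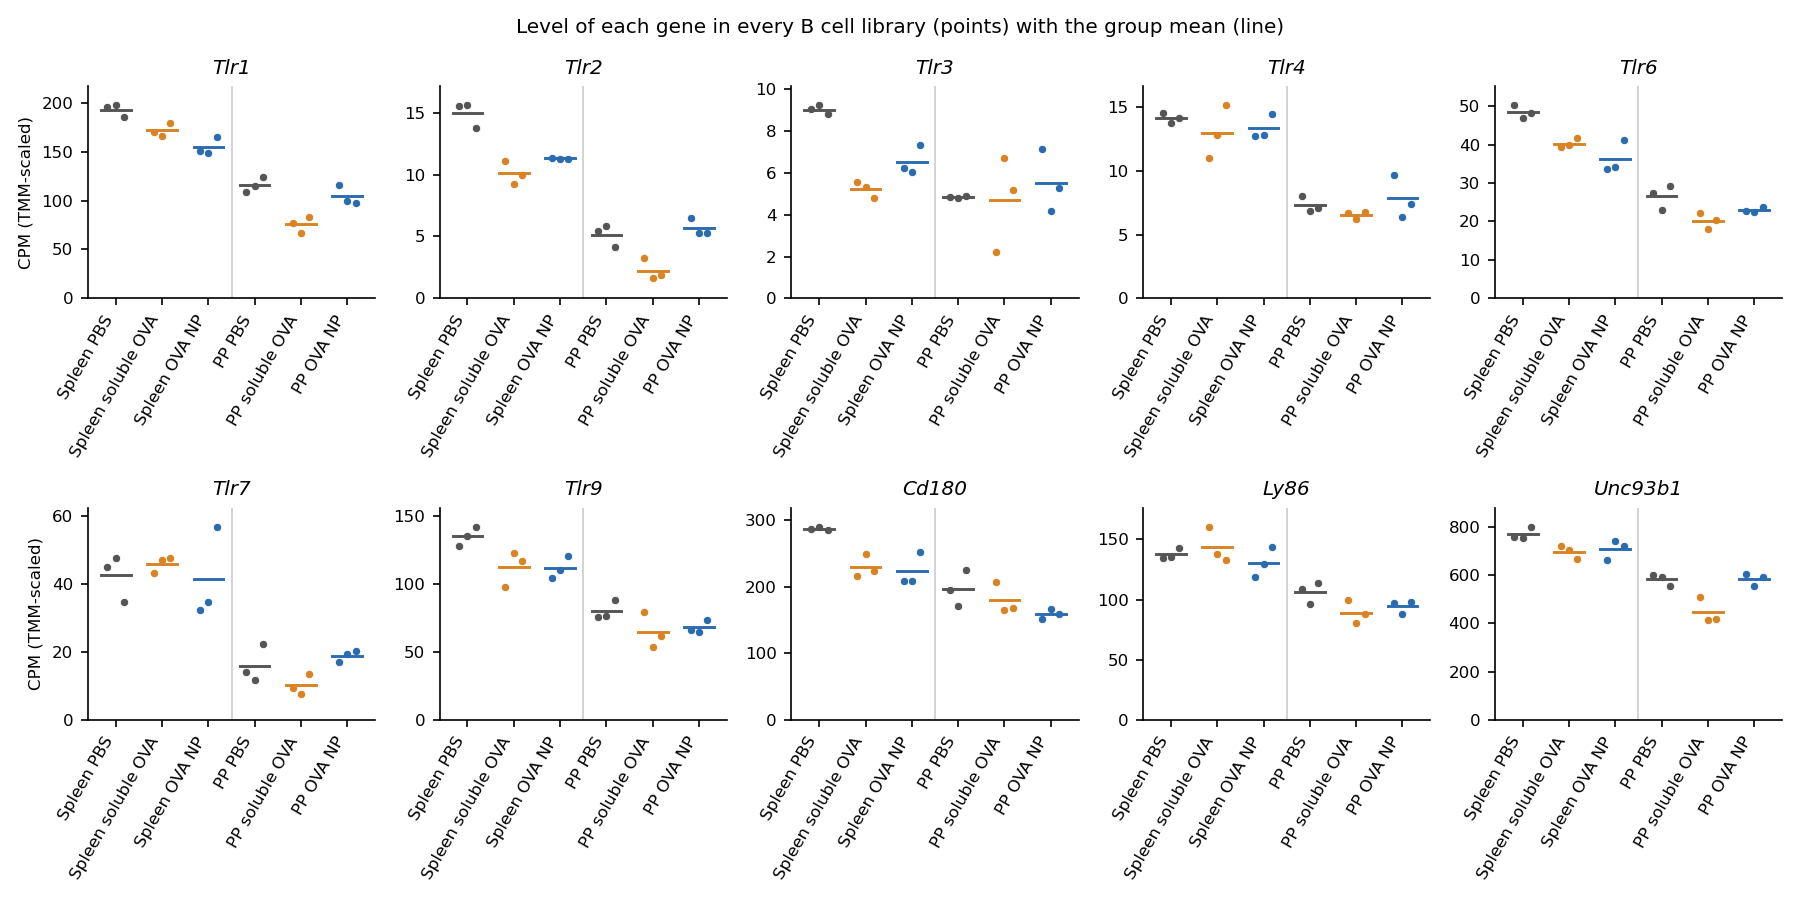
CPM (TMM-scaled, y axis starting at 0) of each of the 10 genes in the 18 B cell libraries; each point is 1 library, each short line the mean of 3 libraries, and the vertical line separates spleen from Peyer's patch (PP). In the spleen, *Cd180* after PBS sits between 286 and 290.4 CPM, above all 6 libraries given OVA in either form.

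The first comparison asked which receptors differed in splenic B cells between mice given OVA NPs and mice given PBS. A gene was called when its adjusted p (edgeR, Benjamini-Hochberg over all tested genes) was under 0.05 and its absolute log2 fold change above 0.25. *Tlr1*, *Tlr2*, *Tlr3*, *Tlr6*, *Tlr9*, and *Cd180* were lower after OVA NPs, which is 6 of 10, and 0 were higher. Of all 14200 tested genes, 6.35% were called lower and 15% were called in either direction. The median log2 fold change was -0.29 over the 10 genes and 0.00062 over all tested genes. In 7 of the 10 genes every OVA NP library was below every PBS library, as were 18.6% of all tested genes. Soluble OVA was compared with the same 3 PBS libraries, so the comparisons are not independent. After soluble OVA, *Tlr2*, *Tlr3*, *Tlr6*, *Tlr9*, and *Cd180* were lower, which is 5 of 10, against 6.72% of 14128 tested genes called lower and 17.2% called in either direction. The median log2 fold change over the 10 genes was -0.21.

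Among the lipopeptide receptors of the spleen, TLR1 and TLR6 each pair with TLR2 to bind triacylated or diacylated lipopeptides. *Tlr1* was at 196, 197, and 186 CPM after PBS, at 170.5, 167, and 179.9 CPM after soluble OVA, and at 151, 148, and 165 CPM after OVA NPs. The 3 groups did not overlap and stood in the order PBS, soluble OVA, OVA NP. The log2 fold change of *Tlr1* against PBS was -0.31 (SE 0.06, adjusted p = 0.00123) with OVA NPs and -0.16 (SE 0.06, adjusted p = 0.069) with soluble OVA, so only the first was called. *Tlr6*, the neighbor and closest relative of *Tlr1*, was at 50.3, 46.9, and 48.3 CPM after PBS, at 39.3, 39.9, and 41.7 CPM after soluble OVA, and at 33.6, 34.2, and 41.3 CPM after OVA NPs. Both OVA groups lay below the PBS group and overlapped each other. Its log2 fold change was -0.41 (SE 0.08, adjusted p = 0.00195) with OVA NPs and -0.27 (SE 0.07, adjusted p = 0.013) with soluble OVA. *Tlr2*, the shared partner, was at 15.6, 15.6, and 13.8 CPM after PBS, at 11.1, 9.2, and 9.99 CPM after soluble OVA, and at 11.3 CPM in each of the 3 OVA NP libraries. Its groups did not overlap either, and the log2 fold change was -0.40 (SE 0.11, adjusted p = 0.0149) with OVA NPs and -0.56 (SE 0.11, adjusted p = 0.00297) with soluble OVA.

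*Tlr4*, the lipopolysaccharide receptor, was at 13.8 to 14.6 CPM after PBS, 11 to 15.1 CPM after soluble OVA, and 12.7 to 14.5 CPM after OVA NPs, with all 3 groups overlapping and no call. Its homolog *Cd180* was at 287, 290.4, and 286 CPM after PBS, at 216, 250.2, and 224 CPM after soluble OVA, and at 208, 209, and 253 CPM after OVA NPs. The PBS libraries were close together and above all others. The log2 fold change of *Cd180* was -0.36 (SE 0.07, adjusted p = 0.00204) with OVA NPs and -0.32 (SE 0.07, adjusted p = 0.00461) with soluble OVA. *Ly86*, which encodes the partner that CD180 needs at the surface, was at 135, 136, and 143 CPM after PBS, at 161, 138, and 132 CPM after soluble OVA, and at 119, 129, and 144 CPM after OVA NPs. These groups overlapped, and the log2 fold change of *Ly86* was -0.07 (SE 0.06) with OVA NPs and 0.06 (SE 0.07) with soluble OVA, with no call.

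The nucleic acid receptors of the spleen did not share 1 pattern. *Tlr9*, the receptor of CpG DNA, was at 128, 135, and 142 CPM after PBS, at 97.5, 123, and 117 CPM after soluble OVA, and at 104, 110.2, and 121 CPM after OVA NPs. Both OVA groups were below PBS. The log2 fold change of *Tlr9* was -0.27 (SE 0.06, adjusted p = 0.00598) with OVA NPs and -0.27 (SE 0.08, adjusted p = 0.0413) with soluble OVA. *Tlr3*, the receptor of double-stranded RNA, was at 9.06, 9.24, and 8.82 CPM after PBS, at 5.58, 5.35, and 4.78 CPM after soluble OVA, and at 6.24, 6.03, and 7.36 CPM after OVA NPs. The 3 groups did not overlap, with soluble OVA the lowest. The log2 fold change of *Tlr3* was -0.45 (SE 0.14, adjusted p = 0.0321) with OVA NPs and -0.78 (SE 0.14, adjusted p = 0.00131) with soluble OVA. *Tlr7*, the receptor of single-stranded RNA, was at 45, 47.7, and 34.6 CPM after PBS, at 43.1, 46.9, and 47.6 CPM after soluble OVA, and at 32.4, 34.8, and 56.8 CPM after OVA NPs. The OVA NP libraries spanned the other groups, and the log2 fold change of -0.02 had an SE of 0.28. *Unc93b1*, which escorts all 3 of these receptors, was at 757, 753, and 799.9 CPM after PBS, at 721, 702, and 666 CPM after soluble OVA, and at 664, 739.9, and 721 CPM after OVA NPs. Every library given OVA was below every PBS library, yet the log2 fold changes of -0.11 (SE 0.06) with OVA NPs and -0.14 (SE 0.06) with soluble OVA were not called.

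OVA NPs and soluble OVA were then compared with each other in the spleen. By edgeR, 0 of the 10 genes were called, as by DESeq2, and over all 13840 tested genes 0.238% were called in either direction. At an unadjusted p under 0.05 there were 1199 of the 13840 genes, and 1 of the 10, *Tlr1*, a share near that of all genes. The log2 fold changes of the 10 genes, OVA NP minus soluble OVA, ran from -0.15 (SE 0.07) for *Tlr1* to 0.33 (SE 0.17) for *Tlr3*. With these errors a small difference could not be detected.

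Markers of other cell states moved in the same spleen libraries. The 7 marginal zone B cell markers summed to 2070.3 to 2297 CPM after PBS, 1723 to 1981 CPM after soluble OVA, and 1747 to 2024 CPM after OVA NPs, and 4 of 7 were called lower in each comparison. The 9 germinal center B cell markers summed to 108 to 181 CPM after PBS, 406 to 589 CPM after soluble OVA, and 387 to 423 CPM after OVA NPs, with 8 of 9 called higher after OVA NPs and 9 of 9 after soluble OVA. The 13 markers of monocytes, macrophages, and dendritic cells summed to 123 to 278 CPM after PBS, 46.7 to 93.8 CPM after soluble OVA, and 56 to 179.8 CPM after OVA NPs. Of these, 5 of 12 tested were called lower after OVA NPs and 6 of 11 after soluble OVA, and none of the markers in these 3 lists was at 0 throughout a spleen group. The 6 plasma cell markers summed to 375 to 432 CPM after PBS, 482 to 551 CPM after soluble OVA, and 600.1 to 617 CPM after OVA NPs, without overlap. Of the 5 tested, *Xbp1* and *Jchain* were called higher in both comparisons, and *Irf4* was called lower with soluble OVA. The 6 B cell markers, of which 5 are named above, summed to 8521 to 8790 CPM after PBS and 8301 to 8725 CPM after soluble OVA. After OVA NPs they summed to 7358, 7720, and 8632 CPM, and 0 of 6 were called in each comparison. OVA NP replicates 1 and 2 had 16813558 and 17359295 counts in total, against 25474996 in replicate 3. The list of monocytes, macrophages, and dendritic cells summed to 179.8, 147, and 56 CPM in OVA NP replicates 1, 2, and 3. The 5 neutrophil markers summed to 92.7, 85.6, and 23 CPM in the same order, with *Ly6g* at 0 in this group. For *Tlr1*, *Tlr3*, *Tlr6*, *Tlr9*, and *Cd180*, but not for *Tlr2*, replicate 3 was the highest of the OVA NP group. The part of these shifts and of depth in the levels of the receptors and of the other pathway genes was not tested.

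Leaving out 1 library at a time, *Tlr1*, *Tlr6*, and *Cd180* stayed called in all 6 fits of OVA NPs against PBS, and 4 genes were called without each of the PBS libraries or OVA NP replicates 1 and 2. *Tlr3* lost its call in 5 of these fits (adjusted p between 0.0648 and 0.123) and with DESeq2 (adjusted p = 0.0602), and without spleen PBS replicates 1 and 2 or OVA NP replicate 2 so did *Tlr2* (0.0537 to 0.0691), whereas *Tlr9* fell under the fold cutoff without PBS replicate 3 (-0.23) or OVA NP replicate 1 (-0.23). For soluble OVA, *Tlr2*, *Tlr3*, and *Cd180* stayed called in all 6 fits, *Tlr9* was lost without any PBS library or soluble OVA replicate 1 (adjusted p between 0.0622 and 0.132), and *Tlr6* without PBS replicate 1 (-0.23) or soluble OVA replicate 1 (-0.24).

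**Figure D2:**
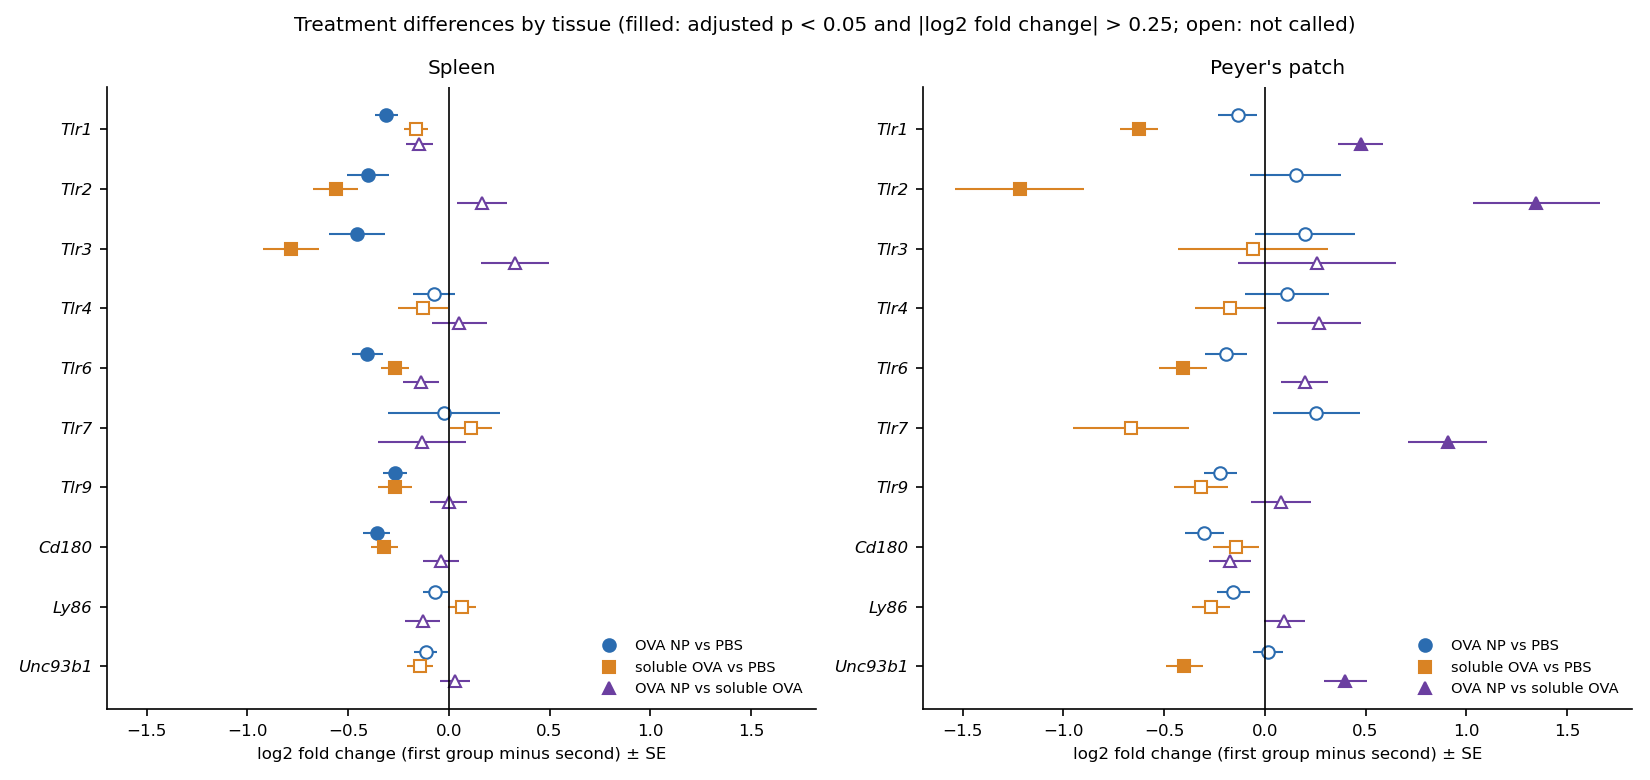
Log2 fold changes (x axis, first group minus second, with SE bars) of the 10 genes for 3 treatment comparisons in the spleen (left) and Peyer's patch (right); filled symbols were called and open symbols were not. In the spleen the called symbols lie between -0.78 and -0.27, and in Peyer's patch OVA NPs against PBS show open symbols only.

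In Peyer's patch B cells, OVA NPs were compared with PBS by the same test. By edgeR 0% of 15798 genes were called, so 0 of the 10 were, and the smallest adjusted p over all genes was 0.0522. DESeq2 called 150 genes, of which 0 were among the 10. At an unadjusted p under 0.05 there were 1573 genes, and *Tlr9* and *Cd180* were among them. *Tlr9* was at 75.9, 88.1, and 76.5 CPM after PBS and at 66.4, 64.7, and 73.5 CPM after OVA NPs, and the groups did not overlap (log2 fold change -0.22, SE 0.08, adjusted p = 0.443). *Cd180* was at 196, 225, and 171 CPM after PBS and at 151, 166, and 159 CPM after OVA NPs, again without overlap (log2 fold change -0.30, SE 0.10, adjusted p = 0.384). Over all tested genes, every OVA NP library was below every PBS library in 10.5%.

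Soluble OVA differed from PBS in Peyer's patches at more of the genes. *Tlr1*, *Tlr2*, *Tlr6*, and *Unc93b1* were lower after soluble OVA, which is 4 of 10, and 0 were higher. Of 15792 tested genes, 13.9% were called lower and 27.4% were called in either direction. The median log2 fold change was -0.36 over the 10 genes and -0.02 over all genes. Every soluble OVA library was below every PBS library in 5 of the 10 genes and in 23% of all tested genes. OVA NPs were compared with the same soluble OVA libraries, and *Tlr1*, *Tlr2*, *Tlr7*, and *Unc93b1* were higher after OVA NPs. These are 4 of 10, against 13.8% of 15599 tested genes called higher and 30.1% called in either direction.

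*Tlr1* in Peyer's patches was at 109, 124, and 115 CPM after PBS, at 77.5, 66.6, and 83.6 CPM after soluble OVA, and at 116, 99.6, and 97.7 CPM after OVA NPs. The soluble OVA group was below both others, which overlapped. The log2 fold change of *Tlr1* was -0.62 (SE 0.09, adjusted p = 0.00146) for soluble OVA against PBS and 0.48 (SE 0.11, adjusted p = 0.0129) for OVA NPs against soluble OVA. *Tlr2* was at 5.41, 4.17, and 5.84 CPM after PBS, at 3.22, 1.61, and 1.88 CPM after soluble OVA, and at 6.48, 5.28, and 5.28 CPM after OVA NPs. Again the soluble OVA libraries were the lowest, at log2 fold changes of -1.22 (SE 0.32, adjusted p = 0.0205) and 1.35 (SE 0.32, adjusted p = 0.0118). *Tlr6* was at 27.4, 29.1, and 23.1 CPM after PBS, at 22.2, 18, and 20.4 CPM after soluble OVA, and at 22.8, 22.4, and 23.8 CPM after OVA NPs. Its soluble OVA group lay below both others, and of its log2 fold changes, -0.40 (SE 0.12, adjusted p = 0.0328) was called and 0.20 (SE 0.12, adjusted p = 0.232) was not. *Tlr4* was at 6.86 to 8.04 CPM after PBS, 6.23 to 6.81 CPM after soluble OVA, and 6.4 to 9.7 CPM after OVA NPs, with no call.

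*Cd180* did not follow the lipopeptide receptors in Peyer's patches. After soluble OVA it was at 207, 165, and 169 CPM, which overlapped the PBS group (log2 fold change -0.14, SE 0.11). *Ly86* was at 109, 114, and 96.1 CPM after PBS, at 99.3, 80.2, and 87.7 CPM after soluble OVA, and at 97, 88.2, and 98.3 CPM after OVA NPs. The groups overlapped and *Ly86* was not called, with a log2 fold change of -0.27 (SE 0.09, adjusted p = 0.0588) for soluble OVA against PBS.

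*Tlr7* had the widest treatment range of the nucleic acid receptors in Peyer's patches. It was at 14, 22.2, and 11.7 CPM after PBS, at 9.24, 7.68, and 13.4 CPM after soluble OVA, and at 16.9, 19.2, and 20.2 CPM after OVA NPs. The OVA NP and soluble OVA groups did not overlap, and both overlapped PBS. Its log2 fold change was 0.91 (SE 0.20, adjusted p = 0.00833) for OVA NPs against soluble OVA and -0.66 (SE 0.29, adjusted p = 0.133) for soluble OVA against PBS. *Tlr9* after soluble OVA was at 79.1, 53.9, and 61.4 CPM, which overlapped both other groups. *Tlr3* was at 4.82 to 4.91 CPM after PBS, at 2.2, 6.74, and 5.18 CPM after soluble OVA, and at 7.13, 4.17, and 5.28 CPM after OVA NPs. Its spread after either form of OVA exceeded any difference between means. *Unc93b1* was at 602, 553, and 593 CPM after PBS, at 508, 414, and 416 CPM after soluble OVA, and at 606, 553, and 593 CPM after OVA NPs. The soluble OVA group was below both others, with log2 fold changes of -0.40 (SE 0.09, adjusted p = 0.0104) against PBS and 0.40 (SE 0.11, adjusted p = 0.0218) for OVA NPs against soluble OVA.

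The markers of other cells differed between the same Peyer's patch libraries. Of the 5 B cell markers named above, 2 were called lower with soluble OVA than with PBS and 0 were called between OVA NPs and soluble OVA. The germinal center B cell list summed to 1253 to 1497 CPM after PBS, 2368 to 2402 CPM after soluble OVA, and 958 to 1456 CPM after OVA NPs, and 8 of 9 markers were called higher with soluble OVA than with PBS. The marginal zone list summed to 1005 to 1164 CPM, 749 to 833 CPM, and 1013 to 1096 CPM in the same order, with 4 of 7 called lower with soluble OVA. The list of monocytes, macrophages, and dendritic cells summed to 197 to 329 CPM, 186 to 409 CPM, and 334 to 422 CPM, and 5 of 11 tested were called higher with OVA NPs than with soluble OVA. On this list, *Ace* reached 258.9 CPM over the 18 libraries, with a median of 35.8 CPM. *Lyz2* reached 183.7 CPM, and the next highest marker was *Itgax*, at 39.9 CPM at most. Also on this list, *Cd300e* was at 0 in all 3 soluble OVA libraries. Its median over the 18 libraries was 0.199 CPM, where 3 counts corresponded to 0.105 to 0.22 CPM, so this 0 says little. The 5 markers of plasmacytoid dendritic cells, which are known for high *Tlr7* and *Tlr9*, summed to 31.3 to 41.1 CPM, 23.3 to 34.2 CPM, and 46.6 to 52.5 CPM, and 3 of 5 were called higher with OVA NPs than with soluble OVA. The 8 T cell markers summed to 14.1 to 20.6 CPM, 9.05 to 15.3 CPM, and 28.5 to 39.4 CPM, and 7 of 8 were called higher in that comparison. In replicates 1, 2, and 3 the 5 epithelial markers summed to 399, 186, and 584 CPM after PBS. They summed to 212, 805, and 738 CPM after soluble OVA and to 781, 396, and 504 CPM after OVA NPs. Of these 5, 0 were called between soluble OVA and PBS, and 1 was higher with OVA NPs than with soluble OVA. In each Peyer's patch group, the library lowest in the epithelial sum was also lowest in the monocyte, macrophage, and dendritic cell sum. How much of the latter sum, and of *Ace* within it, came from other cells was not tested. The part of all the cells listed here and of the mitochondrial share in the receptor levels was not tested.

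**Figure D3:**
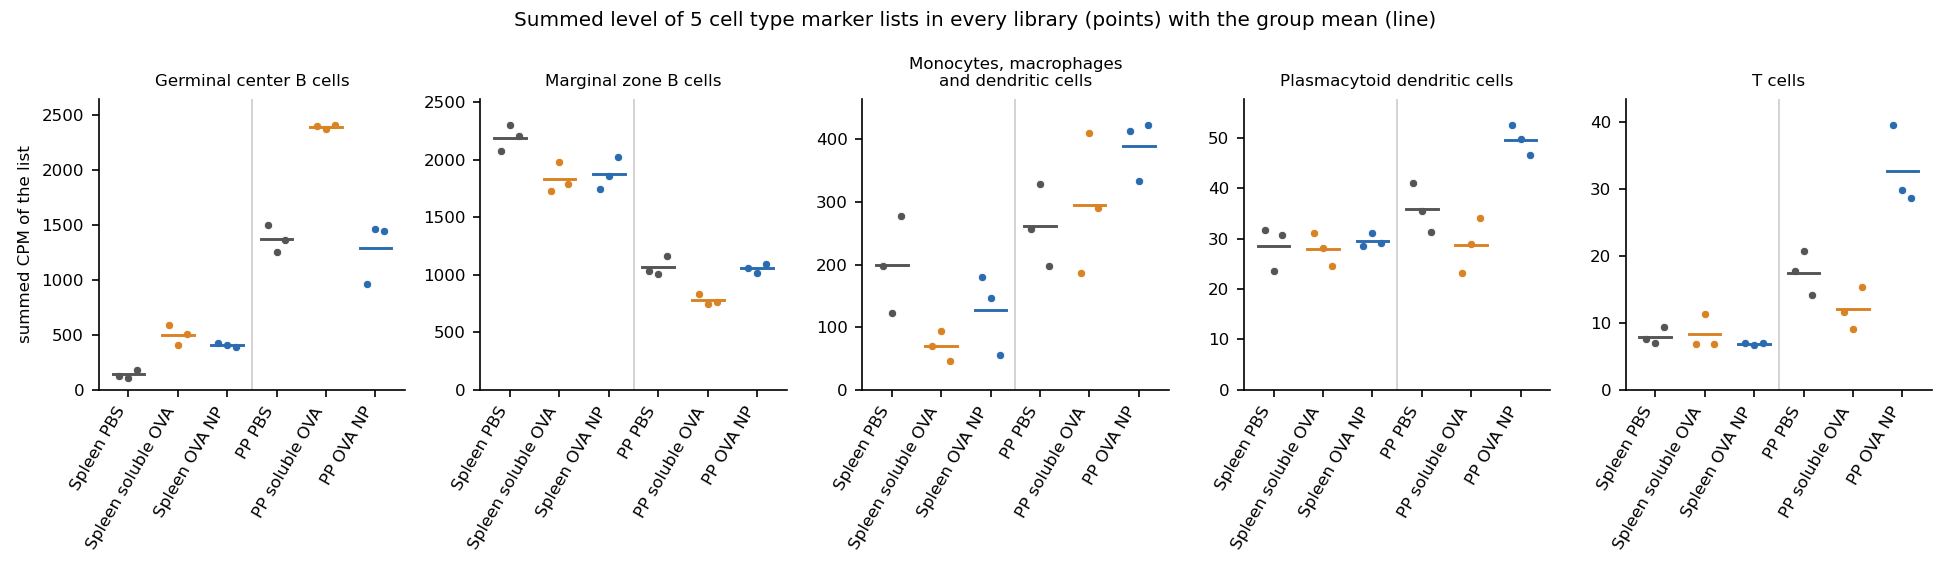
Summed CPM (y axis, from 0) of the markers of germinal center B cells, marginal zone B cells, monocytes with macrophages and dendritic cells, plasmacytoid dendritic cells, and T cells in each of the 18 libraries (points, with group means as lines; PP, Peyer's patch). The germinal center sum reaches 2368 to 2402 CPM in Peyer's patch after soluble OVA, while the marginal zone sum there is 749 to 833 CPM.

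With DESeq2, *Tlr6* lost its call for soluble OVA against PBS (adjusted p = 0.0821), which left 3 genes called. Only *Tlr1* kept its call in all 6 fits of soluble OVA against PBS that left out 1 library. The number of genes called was 1 without soluble OVA replicate 2 or 3, 2 without PBS replicate 1 or 3, 3 without PBS replicate 2, and 6 without soluble OVA replicate 1, which added *Tlr9* (-0.46) and *Ly86* (-0.33). For OVA NPs against soluble OVA, *Tlr1* and *Tlr7* kept their calls in all 6 fits, *Unc93b1* lost its call without soluble OVA replicate 2 or 3 or OVA NP replicate 1 or 3 (adjusted p between 0.0515 and 0.0891), and *Tlr2* without soluble OVA replicate 3 (0.05001), which left 2 genes called.

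All 10 genes were lower in Peyer's patch B cells than in splenic B cells when the 3 treatments were averaged in 1 fit of 18 libraries. The fit treated these libraries as independent, although the tissues may have come from the same mice. Of 17170 tested genes, 24.6% were called lower in Peyer's patches and 53.2% were called in either direction, and the median log2 fold change was -0.79 over the 10 genes and -0.01 over all genes. *Tlr7* and *Tlr2* had the largest differences. *Tlr7* ranged from 32.4 to 56.8 CPM in the spleen (median 45) and from 7.68 to 22.2 CPM in Peyer's patches (median 14), a log2 fold change of -1.58 (SE 0.15, adjusted p = 3.31e-07). *Tlr2* ranged from 9.2 to 15.6 CPM (median 11.3) and from 1.61 to 6.48 CPM (median 5.28), a log2 fold change of -1.56 (SE 0.11, adjusted p = 6.62e-10). *Tlr4* (-0.90, SE 0.09), *Tlr6* (-0.84, SE 0.06), *Tlr1* (-0.83, SE 0.05), and *Tlr9* (-0.75, SE 0.07) formed a middle range. *Ly86* (-0.51, SE 0.05), *Cd180* (-0.46, SE 0.06), *Unc93b1* (-0.44, SE 0.04), and *Tlr3* (-0.43, SE 0.16) differed least. In 8 of the 10 genes every Peyer's patch library was below every spleen library, as in 9.37% of all tested genes, and *Tlr3* and *Cd180* overlapped. *Tlr3* lost its call without Peyer's patch OVA NP replicate 2 (adjusted p = 0.0689) or 3 (adjusted p = 0.0544), and the other 9 genes kept theirs in all 18 fits that left out 1 library.

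The 2 tissues also differed in cell makeup and handling. The marginal zone list summed to 1723 to 2297 CPM in the spleen and 749 to 1164 CPM in Peyer's patches, and 5 of its 7 markers were called lower and 1 higher in Peyer's patches. The germinal center list summed to 108 to 589 CPM and 958 to 2402 CPM, with 9 of 9 called higher. All 5 B cell markers named above were called lower in Peyer's patches, as the 10 genes were. The 5 epithelial markers summed to 13.9 to 16.2 CPM and 186 to 805 CPM, with 5 of 5 called higher. Peyer's patches were digested with collagenase and DNase, whereas spleens were dissociated mechanically, so tissue and digestion cannot be told apart, and the part of the marker shifts in the receptor levels was not tested.

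Within each treatment the differences between tissues are given as values from the same fit, with no test of their own. *Tlr1* differed by -0.74 (SE 0.08) after PBS, -1.18 (SE 0.08) after soluble OVA, and -0.57 (SE 0.08) after OVA NPs on the log2 scale. *Tlr2* differed by -1.53 (SE 0.20), -2.17 (SE 0.21), and -0.99 (SE 0.19) in the same order. *Tlr7* differed by -1.43 (SE 0.26), -2.18 (SE 0.27), and -1.14 (SE 0.26). The gap between tissues was widest after soluble OVA and narrowest after OVA NPs for these 3 genes and for *Tlr4*, *Tlr6*, *Tlr9*, and *Unc93b1*. How many of all tested genes stood in this order was not determined, so the order is a description only. Of the 10 genes, the interaction tests below called only *Tlr1*, for soluble OVA. The *Tlr4* values of -0.94, -0.98, and -0.77 had an SE of 0.15. The *Tlr9* values of -0.76, -0.79, and -0.71 differed by less than their SE of 0.12. *Cd180* and *Tlr3* had their narrowest gap after soluble OVA and *Ly86* after PBS. *Cd180* was at -0.55 (SE 0.10) after PBS, -0.35 (SE 0.10) after soluble OVA, and -0.49 (SE 0.10) after OVA NPs.

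**Figure D4:**
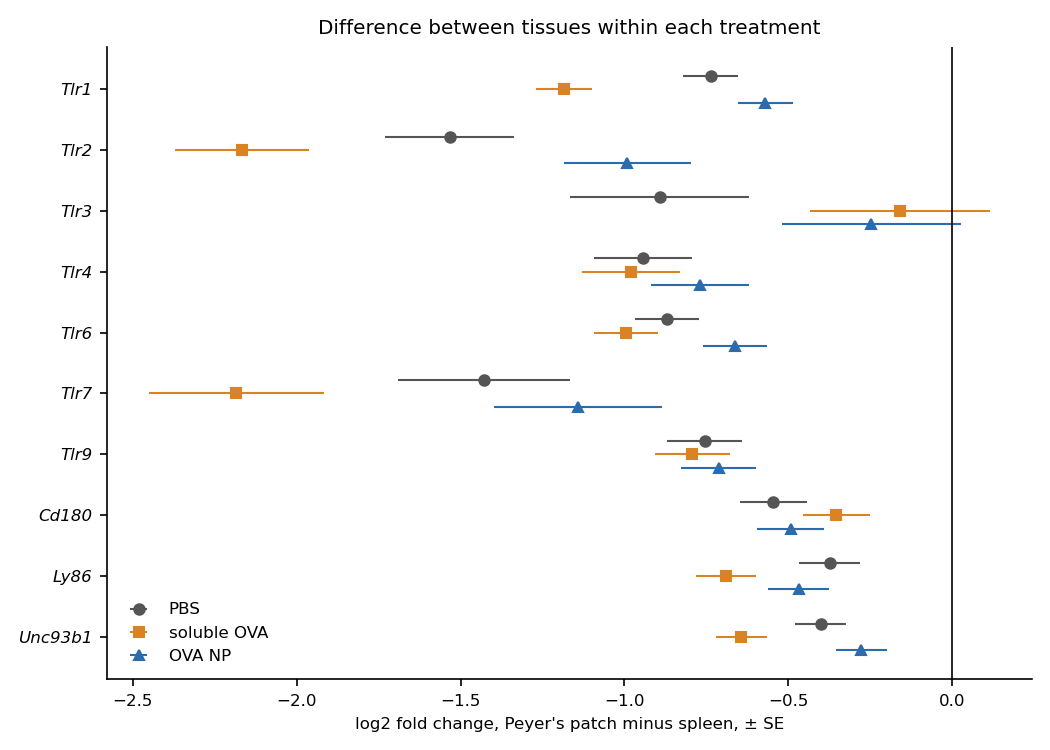
Log2 fold change between Peyer's patch and spleen (x axis, with SE bars) for each of the 10 genes after PBS, soluble OVA, and OVA NPs. All 30 values lie below 0, from -2.18 for *Tlr7* after soluble OVA to -0.16 for *Tlr3* after soluble OVA.

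Whether the effect of treatment differed between tissues was tested as an interaction, with an adjusted p under 0.05 as the call. For soluble OVA against PBS, 1 of the 10 genes was called, *Tlr1*, and 6.84% of 16541 tested genes were. The change of *Tlr1* was -0.62 in Peyer's patches and -0.16 in the spleen, a difference of -0.46 (SE 0.11, adjusted p = 0.0256, edgeR). The call was lost without any of the 3 spleen PBS libraries, without spleen soluble OVA replicate 3, or without Peyer's patch soluble OVA replicate 2, at adjusted p between 0.0592 and 0.076. Without Peyer's patch soluble OVA replicate 1 there were 4 calls, which added *Tlr2* (-1.0), *Tlr3* (1.08), and *Unc93b1* (-0.35). For OVA NPs against PBS, 0 of the 10 genes were called by edgeR or DESeq2, against 4.42% of 16619 tested genes called by edgeR. At an unadjusted p under 0.05 there were 3106 of the 16619 genes, and 2 of the 10, *Tlr2* (0.56, SE 0.22) and *Tlr3* (0.67, SE 0.27), a share near that of all genes. The calls of *Tlr1*, *Tlr2*, *Tlr3*, *Tlr6*, *Tlr9*, and *Cd180* in the spleen and not in Peyer's patches after OVA NPs are therefore not shown to differ between the tissues.

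Ratios of counts within a library do not depend on normalization and were chosen after the values were seen. *Ly86* per *Cd180* read was 0.470, 0.467, and 0.499 in the spleen after PBS, 0.742, 0.552, and 0.591 after soluble OVA, and 0.570, 0.620, and 0.569 after OVA NPs. All 6 libraries given OVA were above the 3 PBS libraries in the spleen. In Peyer's patches the ratio was 0.507 to 0.564 after PBS, 0.480 to 0.520 after soluble OVA, and 0.530 to 0.642 after OVA NPs, and the OVA groups did not overlap each other. *Tlr9* per *Tlr7* read was 2.84 to 4.10 in the spleen after PBS, 2.26 to 2.62 after soluble OVA, and 2.12 to 3.23 after OVA NPs. In Peyer's patches it was 3.97 to 6.55, 4.58 to 8.57, and 3.36 to 3.93 in the same order, so the OVA NP libraries were below all other Peyer's patch libraries. *Tlr1* per *Tlr6* read stayed between 3.48 and 5.09 in all 18 libraries, and the group ranges of the 2 tissues overlapped. No test was run on these ratios.

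**Figure D5:**
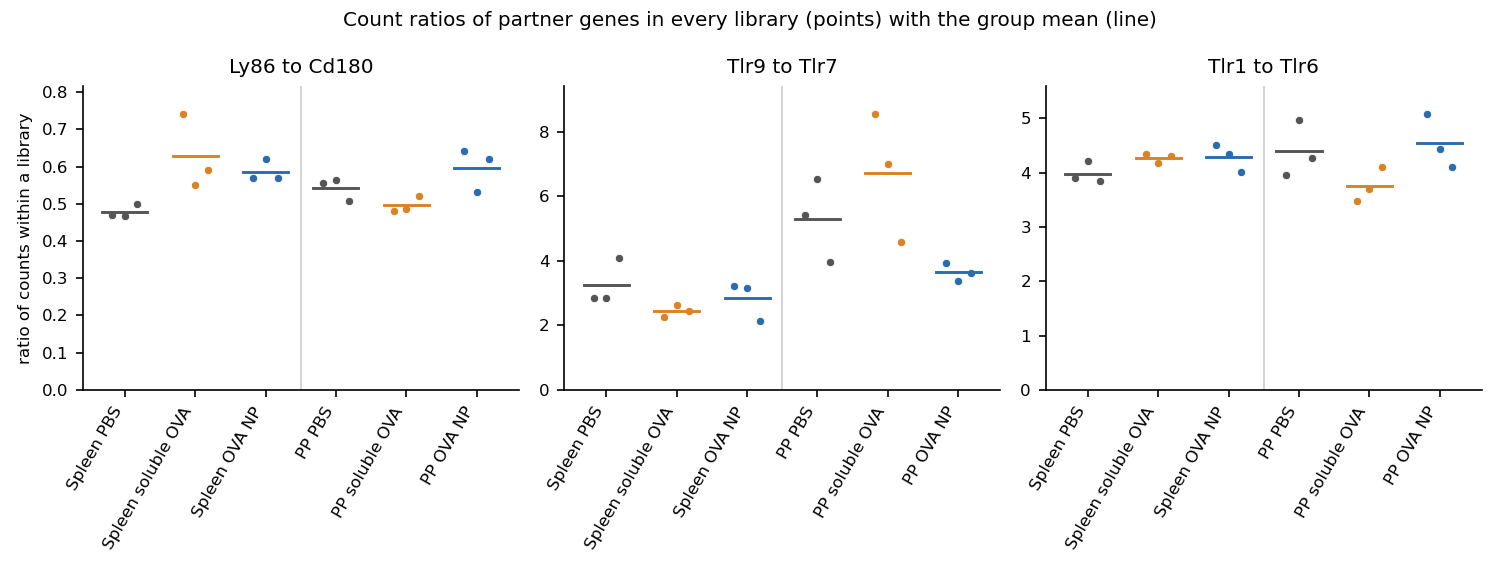
Count ratios within each library (y axis, no unit, from 0) for *Ly86* to *Cd180*, *Tlr9* to *Tlr7*, and *Tlr1* to *Tlr6* (points, with group means as lines; PP, Peyer's patch). In the spleen the *Ly86* to *Cd180* ratio is at most 0.499 after PBS and at least 0.552 after OVA in either form.

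Other genes of the pathway were counted on 4 lists. Among 9 other receptors and co-receptors in the spleen, 7 were tested, of which 2 were lower with OVA NPs and 3 with soluble OVA than with PBS, against 6.35% and 6.72% of all tested genes. *Tlr13*, a receptor of bacterial ribosomal RNA, was at 3.62 ± 1.3 CPM after PBS, 1.57 ± 0.402 after OVA NPs, and 1.06 ± 0.131 after soluble OVA (SD, n = 3 libraries). *Cd36*, a scavenger receptor that assists TLR2, was at 35.3 ± 2.93, 28.2 ± 3.40, and 25.6 ± 1.96 CPM, and *Tlr8* was called lower with soluble OVA only, at 0.239 ± 0.0629 against 1.22 ± 0.448 CPM. In the soluble OVA libraries 3 counts corresponded to 0.116 to 0.187 CPM, so *Tlr8* was near that level there. Of 13 listed folding, trafficking, and cleavage genes in the table, 12 were tested in the spleen, and *Hsp90b1*, the chaperone gp96 that folds TLRs, was higher after OVA NPs (log2 fold change 0.58, SE 0.06) and after soluble OVA (0.38, SE 0.07). *Lrrc59*, which helps TLRs leave the endoplasmic reticulum, was higher by 0.39 (SE 0.06) and 0.36 (SE 0.06). The other genes of this list were not called, and the summed plasma cell markers were higher than with PBS in the same OVA groups. Of all tested genes, 8.6% were called higher with OVA NPs and 10.5% with soluble OVA.

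Among 20 adaptors, kinases, and transcription factors in the spleen, 3 were called with OVA NPs and 1 with soluble OVA, no larger a share than the 15% and 17.2% of all tested genes. *Ticam2*, the adaptor TRAM, was higher with OVA NPs (0.54, SE 0.11), whereas *Irak2*, a kinase that sustains TLR signaling, was lower with OVA NPs (-0.37, SE 0.06) and soluble OVA (-0.26, SE 0.05), and *Tab1* was lower with OVA NPs (-0.36, SE 0.09). Among 10 negative regulators, 1 was higher and 3 were lower with OVA NPs, and 1 was higher and 2 were lower with soluble OVA. Of all tested genes, 8.6% were called higher and 6.35% lower with OVA NPs, and 10.5% higher and 6.72% lower with soluble OVA. *Socs1*, a suppressor of cytokine signaling, was higher by 1.1 (SE 0.16) and 1.47 (SE 0.15), and *Dok3* was lower at -0.30 (SE 0.06) and -0.27 (SE 0.07). *Tnfaip3*, the ubiquitin-editing enzyme A20, was lower at -0.29 (SE 0.09) and -0.41 (SE 0.07). In the comparison of OVA NPs with soluble OVA in the spleen and of OVA NPs with PBS in Peyer's patches, 0 genes of the 4 lists were called.

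In Peyer's patches, 5 of 10 negative regulators were lower and 0 were higher with soluble OVA than with PBS, against 13.9% of all tested genes called lower. *Irak3*, which holds back IRAK signaling, was at 29.4 ± 3.87 CPM after PBS, 12.1 ± 1.38 after soluble OVA, and 27.7 ± 3.28 after OVA NPs (SD, n = 3 libraries). *Nlrc3* was at 35.5 ± 8.10, 17.1 ± 1.07, and 38.1 ± 1.71 CPM, and *Tnfaip3* fell by 1.24 (SE 0.29) on the log2 scale from PBS to soluble OVA. For OVA NPs against soluble OVA, *Irak3* (1.21, SE 0.14), *Nlrc3* (1.16, SE 0.10), and *Sigirr* (0.35, SE 0.12) were higher, which is 3 of 10, against 13.8% of all tested genes called higher. Among 20 adaptors, kinases, and transcription factors, 1 was higher and 5 were lower with soluble OVA than with PBS, and 4 were higher and 2 lower with OVA NPs than with soluble OVA. These shares were near the 27.4% and 30.1% of all tested genes called in these comparisons. *Irak2* was at 86.8 ± 7.28 CPM after PBS, 48.3 ± 2.72 after soluble OVA, and 84.3 ± 1.09 after OVA NPs. *Tirap*, the adaptor that brings MyD88 to TLR2 and TLR4, went the other way, at 29.3 ± 2.86, 45.1 ± 1.75, and 25.1 ± 0.211 CPM. *Ikbke* was at 24.9 ± 4.05, 17.7 ± 1.96, and 32.3 ± 3.55 CPM.

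Of 13 folding, trafficking, and cleavage genes in Peyer's patches, 3 were higher and 4 lower with soluble OVA than with PBS, and 4 were higher and 2 lower with OVA NPs than with soluble OVA, where 12 were tested. Of all tested genes, 13.5% were called higher and 13.9% lower in the first comparison, and 13.8% higher and 16.3% lower in the second. The proteases *Ctss* and *Ctsl*, of the cathepsin family that cleaves endosomal TLRs, were lower after soluble OVA, *Ctss* by -0.68 (SE 0.07) and *Ctsl* by -0.82 (SE 0.16), and higher after OVA NPs than after soluble OVA, by 0.59 (SE 0.10) and 0.65 (SE 0.14). *5430427O19Rik* was at 17.2 ± 4.78 CPM after PBS and 10.4 ± 1.33 after soluble OVA (log2 fold change -0.73, SE 0.20). *Lrrc59* was at 187 ± 16.4 CPM after soluble OVA and 119.8 ± 11.2 after OVA NPs. Among the other receptors, *Tlr13* was lower with soluble OVA than with PBS (-1.53, SE 0.36) and higher with OVA NPs than with soluble OVA (1.67, SE 0.35), and *Cd14*, a co-receptor of TLR4, was higher in the last comparison (1.5, SE 0.38).

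Between tissues, each of the other 4 lists held genes called in both directions. Of 20 adaptors, kinases, and transcription factors 3 were higher and 4 lower in Peyer's patches, of 13 folding, trafficking, and cleavage genes 1 was higher and 5 lower, of 10 negative regulators 2 were higher and 4 lower, and of 9 other receptors and co-receptors 2 were higher and 3 lower. Of all tested genes, 28.6% were called higher and 24.6% lower, and the lists were not compared with the 10 genes by a test. *Irak3* was lower (-1.16, SE 0.06) and *Tnfaip3* higher (1.27, SE 0.21). *Ctss* (-0.79, SE 0.05), *Ticam1* (-0.52, SE 0.07), and *Irak2* (-0.48, SE 0.04) were lower, and *Lrrc59* was higher (0.48, SE 0.04). *Tlr5*, the flagellin receptor, was at 0.526 ± 0.359 CPM in Peyer's patches and 0.0265 ± 0.038 CPM in the spleen (SD, n = 9 libraries), the latter below the level of 3 counts in every library.

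Genes with the most similar pattern were sought for the 4 most abundant of the 10, by Pearson's r of log2 CPM over the 18 libraries after the mean of each tissue was removed, among 9932 genes. For *Cd180* these were *Cybb* (r = 0.980), *Edc4* (0.951), and *Mbtps1* (0.928). For *Tlr1*, *Scml4* (0.973) and *Cmah* (0.959) came first. For *Unc93b1* they were *Rogdi* (0.954), *Tnfrsf18* (0.951), and *Dedd2* (0.949), and for *Ly86* they were *Alg5* (0.935), *Snx2* (0.886), and *Marchf2* (0.878). The libraries share their treatment groups and depth, and the highest of many values is high by selection, so these correlations are descriptions only.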

How the data were processed

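B cell RNA of 18 libraries was sequenced by the authors, whose processing notes name Cutadapt 2.3 for trimming, STAR 2.7.8a for alignment to GRCm38, and RSEM 1.3.3 for gene counts. The deposited values are expected counts, not normalized, and all are whole (0 exceptions), so no rounding was needed. Read pairs that fit several genes are divided by estimate, which can affect *Tlr1* and *Tlr6*. Libraries were grouped by their labels.

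Counts were tested with edgeR 4.0.16 in R 4.3.3 (filterByExpr, minimum count 10 and total 15, TMM, robust quasi-likelihood F test, Benjamini-Hochberg adjustment over all tested genes), on the 6 libraries of a treatment comparison, the 12 of an interaction, or all 18 between tissues. Calls had an adjusted p under 0.05 and, except for interactions, an absolute log2 fold change above 0.25. DESeq2, the test of the authors, served as an alternative (version 1.42.0). With 3 libraries a group, an exact permutation test cannot go below 0.1. The steps were tested on simulated data. In the simulated comparison of treatments the changes were larger than any called for the 10 genes in the spleen. Recovery of changes as small as those was not tested there. The 18 replicate pairs differed by more than counting error (chi-square per gene 4.43 to 37.6, 0 identical). Positions came from the GENCODE annotation of GRCm38 and promoters from RefSeq. The interval that 3 counts give covers counting error only.

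The 10 genes were always named, and pathway genes only where called, at most the 3 with the largest change per list and comparison. Some marker and similar-pattern genes are not reported here. The members and lists were chosen with earlier results of these data known. Alternatives were DESeq2, its size factors, other count filters, no fold cutoff, removal of mitochondrial genes, fits to all libraries of a tissue, a replicate block, and each library left out.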

Additional observations from a re-analysis of the deposited data

Results flagged for a closer look

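The changes of 1 receptor and 11 other pathway genes from PBS differed between tissues by the interaction test (edgeR, adjusted p under 0.05), given here as the Peyer's patch change minus the spleen change on the log2 scale. Of all tested genes, 6.84% were called for soluble OVA and 4.42% for OVA NPs. For OVA NPs, 1 of 13 folding, trafficking, and cleavage genes was called. So were 1 of 20 adaptors, kinases, and transcription factors, 1 of 10 negative regulators, and 0 of 9 other receptors. Over the 4 lists the OVA NP calls were near the share of all genes. For soluble OVA, 1 of 13 folding, trafficking, and cleavage genes was called with a positive difference and 2 with a negative one. Of 20 adaptors, kinases, and transcription factors these were 1 and 2, and of 10 negative regulators 0 and 3. Of 8 other receptors tested 0 were called. Of all tested genes 1.77% were called with a positive difference and 5.07% with a negative one. For soluble OVA, *Tlr1* differed by -0.46 (-0.62 in Peyer's patches and -0.16 in the spleen). *Irak3* differed by -1.14 (-1.30 and -0.15), *Nlrc3* by -0.82 (-1.06 and -0.23), and *Irak2* by -0.59 (-0.86 and -0.26). *Ctsl* differed by -0.87 (-0.82 and 0.06), *Ctss* by -0.46 (-0.68 and -0.21), and *Ikbke* by -0.71 (-0.51 and 0.20). *Tirap* differed by 0.60 (0.61 and 0.01) and *Syk* by 0.51 (0.34 and -0.17). *Socs1* differed by -1.09 for soluble OVA (0.37 and 1.47) and by -1.09 for OVA NPs (-0.01 and 1.1). For OVA NPs, *Ticam2* differed by -0.68 (-0.16 and 0.54) and *Lrrc59* by -0.39 (-0.02 and 0.39). Groups of 3 libraries are too small for a test of single outlying libraries.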

How the results depend on the processing

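Of 90 log2 fold changes of the 10 genes, 16 changed sign in at least 1 of the fits that left out a library, and 0 of these had been called. Over all alternatives together, 37 fits reversed a sign, which includes *Tlr9* with DESeq2 size factors and with the replicate block. *Tlr7* ran from -0.33 to 0.12 for OVA NPs against PBS in the spleen, from -0.012 to 0.20 for soluble OVA against PBS, and from -0.44 to 0.010 for OVA NPs against soluble OVA. *Ly86* ran from -0.013 to 0.13 for soluble OVA against PBS. For OVA NPs against soluble OVA in the spleen, *Tlr4* ran from -0.072 to 0.19, *Tlr9* from -0.11 to 0.074, and *Cd180* from -0.13 to 0.033, and *Tlr9* was 0.0012 with DESeq2 size factors and 0.0019 with the replicate block. In Peyer's patches, *Tlr3* ran from -0.046 to 0.37, *Tlr4* from -0.092 to 0.24, and *Unc93b1* from -0.028 to 0.061 for OVA NPs against PBS, *Tlr3* from -0.37 to 0.31 for soluble OVA against PBS, and *Tlr3* from -0.078 to 0.60 and *Tlr9* from -0.051 to 0.27 for OVA NPs against soluble OVA. In the interactions, *Ly86* ran from -0.13 to 0.014 with OVA NPs, and *Tlr4* from -0.15 to 0.092 and *Tlr9* from -0.21 to 0.081 with soluble OVA.

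The number of the 10 genes called ran from 4 to 6 for OVA NPs and 3 to 5 for soluble OVA against PBS in the spleen, from 1 to 6 for soluble OVA against PBS and 2 to 4 for OVA NPs against soluble OVA in Peyer's patches, from 9 to 10 between tissues, and from 0 to 4 for the soluble OVA interaction when 1 library was left out. Without a count filter it was 6 for soluble OVA against PBS in Peyer's patches, since *Tlr7* and *Tlr9* passed. Over all genes, calls for OVA NPs against soluble OVA in the spleen numbered 33, 83 with DESeq2, 230 without a count filter, and 0 to 40 with 1 library left out. For OVA NPs against PBS in Peyer's patches they numbered 0, 150 with DESeq2, 146 without a count filter, 4 without mitochondrial genes, 1 with all 9 libraries of the tissue, and 0 to 8 with 1 library left out. Calls between tissues numbered 9129, and 5816 with at least 10 counts in every library, where fewer genes are tested. The OVA NP interaction gave 734 calls, 1256 with DESeq2, and 291 to 945 with 1 library left out, and the soluble OVA interaction gave 1131, 1823 with DESeq2, and 655 to 1279. Where not stated, the cause was not tested.

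Libraries with the same replicate number did not deviate together in every pair of any comparison, so the numbers were not taken to pair mice. The replicate block gave 3119 calls in place of 4697 for OVA NPs against soluble OVA in Peyer's patches and 429 in place of 734 for the OVA NP interaction. It called 3 of the 10 genes for soluble OVA against PBS in Peyer's patches, without *Tlr6* (adjusted p = 0.0825, edgeR), as DESeq2 also did (adjusted p = 0.0821). With 3 libraries a group, small differences of *Tlr2*, *Tlr3*, and *Tlr4*, the lowest in counts, could not be detected.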
